A study of Mus musculus with 15 samples.

Results

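The MHC class II genes described here are 9 mouse genes chosen by symbol from a table of 25700 genes. They are the transactivator Ciita, the α and β chains H2-Aa, H2-Ab1 and H2-Eb1, the invariant chain Cd74, the peptide exchange chains H2-DMa, H2-DMb1 and H2-DMb2, and H2-Oa. RNA was measured in 15 cultures of macrophages grown from the marrow of mice aged 8 to 10 weeks, in 5 groups of 3 libraries. All groups share 7 days of growth in M-CSF at 10 ng/ml, a growth factor for macrophages. The treated groups then received IFN-γ at 10 ng/ml (termed M1), IL-4 at 10 ng/ml (termed M2), or heme-albumin at 400 µM or 200 µM, heme bound to albumin, which the labels liken to the state of macrophages that take up red cells. The labels give the control group no agent, and albumin without heme is not among the groups. The sources used here do not give the strain, sex or number of the mice or the time under treatment. The labels do not tie the 3 cultures of a group to separate animals, and p-values then cover only the spread among these cultures, possibly a technical one.

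MHC class II molecules are pairs of an α and a β chain that show peptides from taken-up proteins to CD4 T cells. New pairs are held by the invariant chain in the endoplasmic reticulum and led to endosomes, where H2-DM swaps its last fragment for other peptides and H2-O, in B cells and some dendritic cells, restrains H2-DM. CIITA does not bind DNA itself: it is recruited by the RFX complex, CREB1 and NF-Y at the X and Y boxes of class II promoters, and IFN-γ is its classical inducer in macrophages through IRF1, among other factors.

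The X and Y boxes lie at near-fixed spacing, which is why these promoter stretches are shown for the genes measured here. RefSeq promoter windows (250 bases before to 50 after a gene's start, GRCm38.p6) were found for 6 of the 9 genes, 7 windows in all. In 5 of the 6 genes, an AAC was followed after 26 or 27 bases by GATTGG. It holds ATTGG, the reverse complement of the CCAAT core that NF-Y binds. Each line runs 5′ to 3′ on the strand of the gene, with AAC and GATTGG in capitals.
H2-Aa, chr17:34287863-34287914, minus strand: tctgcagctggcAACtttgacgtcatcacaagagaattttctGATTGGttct
H2-Eb1, chr17:34305766-34305816, plus strand: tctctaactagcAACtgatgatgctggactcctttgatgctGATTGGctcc
H2-DMb1, chr17:34153087-34153138, plus strand: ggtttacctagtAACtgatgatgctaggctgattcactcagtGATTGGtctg
H2-DMb2, chr17:34145116-34145167, plus strand: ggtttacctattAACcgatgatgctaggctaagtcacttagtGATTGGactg
H2-Oa, chr17:34092293-34092344, plus strand: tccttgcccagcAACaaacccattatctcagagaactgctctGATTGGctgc
GATTGG began 49, 60, 62, 91 and 44 bases before the start of H2-Aa, H2-Eb1, H2-DMb1, H2-DMb2 and H2-Oa in this order. One of the H2-DMa windows held GATTGG, and neither held the pair. Of 32851 promoter windows of the same length, 16.1% held GATTGG on either strand and 0.505% held AAC and GATTGG at that spacing. The spacing was read from these same class II windows, so the share is a description of the windows. H2-Ab1, Cd74 and Ciita are named only.

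Total counts ran from 8427352 to 28587416 per library, and 11883 genes, all 9 class II genes among them, passed a filter on low counts. Levels are counts scaled to a common library total (CPM), and differences are log2 fold changes with their standard error from edgeR's quasi-likelihood test over all 15 libraries, with adjusted p-values by Benjamini-Hochberg and a threshold of 0.05. A library of the IFN-γ group (replicate 3) correlated with the other two at 0.942 and 0.954 over 11270 genes, against 0.982 between them, and a library of the heme-albumin 400 µM group (replicate 2) did so at 0.965 and 0.976, against 0.992. When both were left out, the number of class II genes called was the same in every comparison that includes either of these groups. All 8 macrophage markers (Adgre1, Csf1r, Cd68 and others) were present in every group, with a summed level of 13731 to 23702 CPM with IFN-γ, 14751 to 20685 with IL-4, 41759 to 50011 at 400 µM and 45428 to 53189 at 200 µM of heme-albumin, against 37118 to 41874 in controls. Lyz2, lysozyme, made up most of these sums, at a mean of 9905 CPM with IFN-γ and 11545 CPM with IL-4, against 31730 CPM in controls. Of the other 7, with IFN-γ Mertk (2.17 ± 0.46) and Fcgr1 (2.37 ± 0.25) were higher and Cd68 (-0.55 ± 0.14) was lower, and with IL-4 Fcgr1 (-4.08 ± 0.28) was lower. At 400 µM C1qa (-3.17 ± 0.79), Mertk (-1.36 ± 0.47) and Fcgr1 (-1.12 ± 0.24) were lower, and at 200 µM Fcgr1 (-0.93 ± 0.24). The part of these differences in the class II levels was not tested. These are bulk samples, in which fewer cells of a type and less RNA per cell cannot be told apart.

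Every one of the 9 genes was higher with IFN-γ than in controls, where Ciita, H2-Oa and H2-DMb2 rested on 32, 10 and 23 counts in all. Ciita (chromosome 16, 10480059 to 10528418, plus strand, GRCm38) had 220, 237 and 203 CPM with IFN-γ, against 0.646, 0.983 and 0.949 CPM in controls. The IFN-γ values rest on 12356 counts. Ciita shares 3.5% of its exon bases with Dexi on the other strand, which had 5.27, 7.82 and 7.38 CPM with IFN-γ, against 5.45, 6.88 and 4.75 CPM in controls. This was the largest difference among the 9 genes, 8.19 ± 0.34 on the log2 scale (edgeR, adjusted p = 1.41e-09).

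The chains followed with differences of about 7 log2 units. H2-Aa, the α chain of I-A, had 1657, 1833 and 2993 CPM with IFN-γ, against 25.4, 19.1 and 12.9 CPM in controls, a difference of 7.03 ± 0.42 (edgeR, adjusted p = 3.66e-08). H2-Ab1, its β chain, had 990.1, 1116 and 2334 CPM with IFN-γ, against 12.9, 10.1 and 6.53 CPM in controls (7.44 ± 0.47). H2-Eb1, the β chain of I-E, had 973, 1020 and 1762 CPM with IFN-γ, against 18.4, 12.1 and 8.31 CPM in controls (6.80 ± 0.40). In each chain the highest value was that of IFN-γ replicate 3, the library that stood apart, and no treated library came near a control. Without IFN-γ replicate 3 the difference of H2-Ab1 was 6.84.

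Per exon length (TPM, the share of transcripts that the counts and exon lengths give), Cd74 had the highest mean level of the 9 genes in every group, at 16179 ± 3971 TPM with IFN-γ, 2078 ± 235 with IL-4, 114 ± 28.7 at 400 µM and 126 ± 42.9 at 200 µM of heme-albumin, and 144 ± 31.9 in controls (SD, n = 3). In CPM it had 6517, 8149 and 11107 CPM with IFN-γ, against 93.5, 81.2 and 59.7 CPM in controls, a difference of 6.99 ± 0.37 (edgeR, adjusted p = 1.18e-08). Together the 9 genes took 1.10 to 1.91% of all counts with IFN-γ, against 0.0134 to 0.0190% in controls.

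The peptide exchange genes were higher too, by less. H2-DMa, the α chain of H2-DM, had 338, 418 and 401 CPM with IFN-γ, against 12.8, 17.8 and 14.8 CPM in controls (4.86 ± 0.22). H2-DMb1, one of its β chains, had 283, 304 and 272 CPM with IFN-γ, against 25.9, 31.9 and 29.7 CPM in controls (3.48 ± 0.13). H2-DMb2, the other β chain gene, had 4.85, 8.49 and 6.52 CPM with IFN-γ, against 0.574, 0.525 and 0.831 CPM in controls (3.59 ± 0.40). The intervals of H2-DMa and H2-DMb1 (4.39 to 5.33 and 3.20 to 3.76) lay below those of the chains, of which the lowest began at 5.93. Of the 50-base stretches of H2-DMb1 transcripts, 22.7% also occur in H2-DMb2, so reads of these neighbours are partly uncertain.

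H2-Oa, the α chain of the H2-DM inhibitor H2-O, had 6.82, 5.56 and 21.9 CPM with IFN-γ, against 0.215, 0.262 and 0.356 CPM in controls, a difference of 5.61 ± 0.76 (edgeR, adjusted p = 6.47e-05). IFN-γ replicate 3 was the highest by far, and without it the difference was 4.61. A share of 22.8% of its exon bases is overlapped by BC051537 on the other strand. Its partner H2-Ob, the β chain, was also higher, with 14.0, 20.5 and 2.74 CPM with IFN-γ, against 0.861, 0.393 and 0.949 CPM in controls (4.27 ± 0.66, adjusted p = 1.94e-04), and there replicate 3 was the lowest of the IFN-γ libraries.

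In this comparison 9 of 9 genes were called higher, where 43.7% of all genes tested were called, 24.1% higher and 19.5% lower. Their median difference was 6.80, against 0.05 over all genes tested. H2-Oa passed the filter on low counts through the IFN-γ libraries, at 5.56 to 21.9 CPM. In the other groups its highest value was 0.945 CPM. Its calls in comparisons with IFN-γ thus follow in part from that group and are no separate support.

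**Figure D1:**
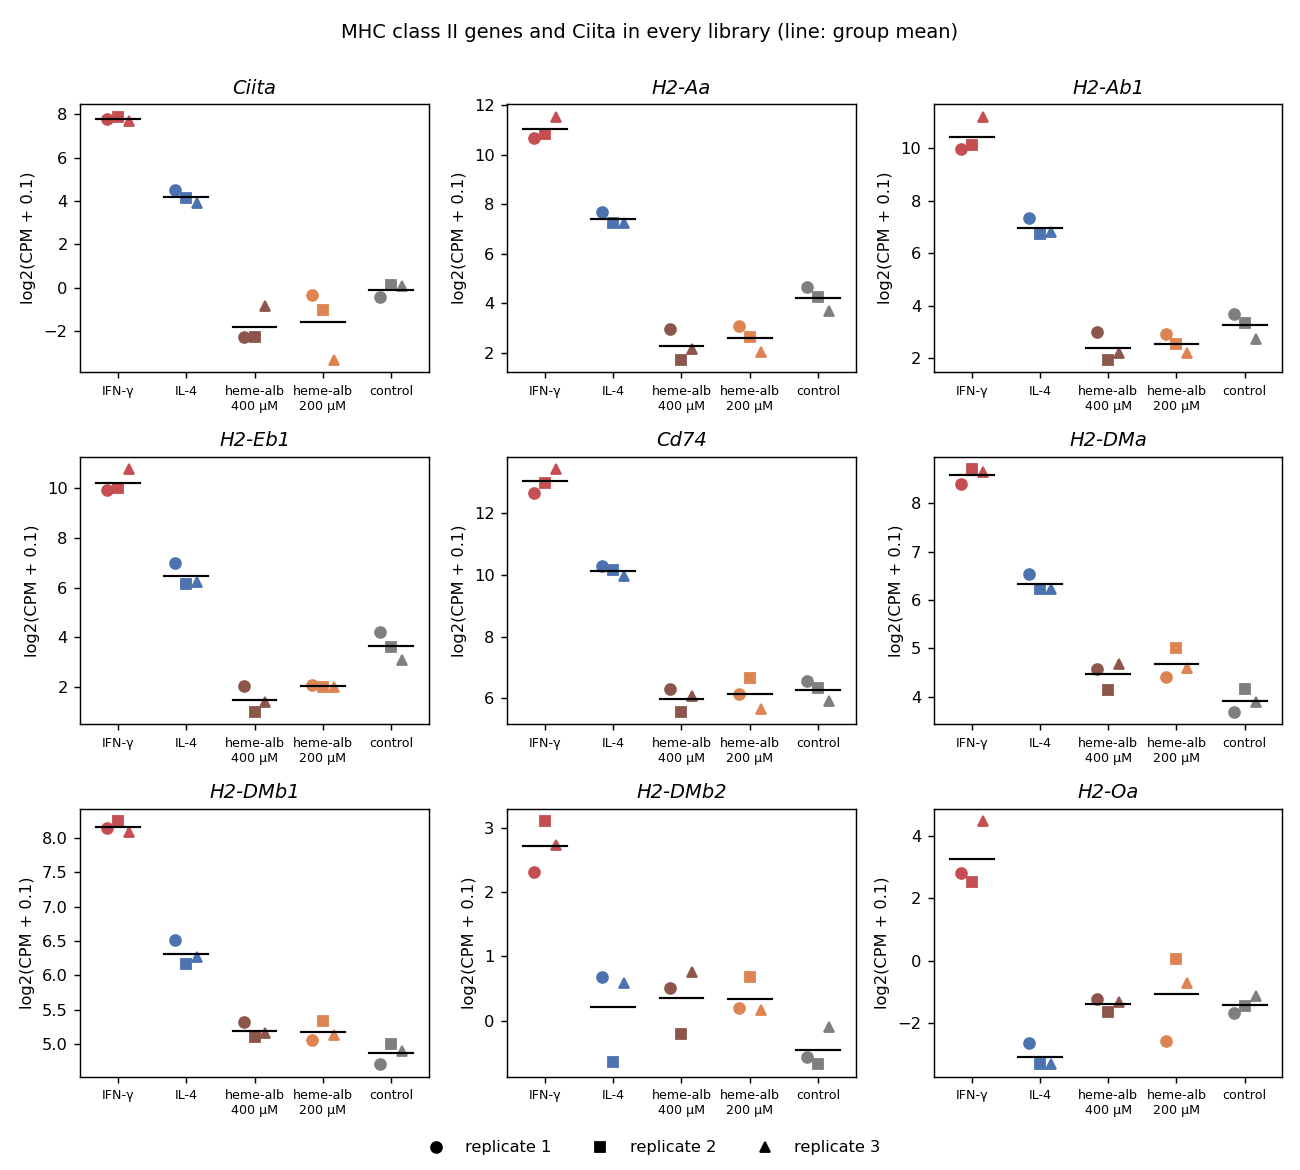
Levels of the 9 genes as log2 of CPM plus 0.1 in each of the 15 libraries, 1 panel a gene, with a line at the mean of the 3 plotted values and a marker shape per replicate number. IFN-γ libraries lie above all others in each panel, IL-4 libraries lie next for Ciita, the chains, Cd74, H2-DMa and H2-DMb1, and for H2-Oa the IL-4 libraries, with 1 count among them, lie lowest.

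With IL-4 the same genes were higher except H2-DMb2 and H2-Oa, each by less than with IFN-γ. Against controls, 7 of 9 genes were higher and none was lower, where 26.8% of all genes tested were called, 14.9% higher and 12% lower, and the median difference of the 9 was 2.91, against -0.00 over all genes. Ciita had 22.8, 17.6 and 15.1 CPM with IL-4, against 0.646, 0.983 and 0.949 CPM in controls, a difference of 4.53 ± 0.33 (edgeR, adjusted p = 6.78e-07). Every IL-4 library was more than 10 CPM above every control.

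Among the chains, H2-Aa had 209, 151 and 150.0 CPM with IL-4, against 25.4, 19.1 and 12.9 CPM in controls (3.25 ± 0.36). H2-Ab1 had 161, 105 and 112 CPM with IL-4, against 12.9, 10.1 and 6.53 CPM in controls (3.77 ± 0.40). H2-Eb1 had 126, 70.7 and 75.2 CPM with IL-4, against 18.4, 12.1 and 8.31 CPM in controls (2.91 ± 0.34). IL-4 replicate 1 was the highest IL-4 library for all 3 chains, and none of these groups overlapped.

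Cd74 had 1251, 1151 and 1005 CPM with IL-4, against 93.5, 81.2 and 59.7 CPM in controls (3.97 ± 0.32, adjusted p = 1.66e-06). H2-DMa had 92.6, 75.2 and 74.9 CPM with IL-4, against 12.8, 17.8 and 14.8 CPM in controls (2.52 ± 0.20). H2-DMb1 had 91.8, 71.5 and 77.1 CPM with IL-4, against 25.9, 31.9 and 29.7 CPM in controls (1.57 ± 0.12). As with IFN-γ, H2-DMb1 had the smallest difference of the genes that passed.

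H2-DMb2 and H2-Oa did not pass. H2-DMb2 had 1.51, 0.544 and 1.40 CPM with IL-4, against 0.574, 0.525 and 0.831 CPM in controls (1.00 ± 0.43, adjusted p = 0.105), and passed only when IL-4 replicate 2, the low library, was left out (1.33, adjusted p = 0.0238). H2-Oa had 1 count in the 3 IL-4 libraries, against 10 in the controls. That ratio is 16.7-fold lower with IL-4, with an exact binomial 95% interval of 2.38 to 726 that covers counting error only, and the adjusted p was 0.128 with edgeR (0.0267 with DESeq2). H2-Ob was likewise low, at 0.251, 0.109 and 0.175 CPM with IL-4, and did not pass against controls (-1.84 ± 0.91, adjusted p = 0.159).

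Set against IFN-γ, all 9 genes were lower with IL-4, H2-Oa under the limit of the filter given above. Of all genes tested 50.6% were called, 26.3% lower and 24.3% higher. The differences were -3.65 ± 0.25 for Ciita, -3.77 ± 0.36 for H2-Aa, -3.67 ± 0.39 for H2-Ab1, -3.90 ± 0.35 for H2-Eb1 and -3.02 ± 0.31 for Cd74 (edgeR, adjusted p from 4.88e-08 to 4.07e-06). H2-DMa differed by -2.34 ± 0.19, H2-DMb1 by -1.91 ± 0.12 and H2-DMb2 by -2.59 ± 0.35. H2-Oa had 1 count with IL-4 against 598 with IFN-γ, of which IFN-γ replicate 3 held 359. That ratio is 677-fold lower with IL-4, with an exact binomial 95% interval of 121 to 26772 that covers counting error only. With edgeR the difference of H2-Oa was -8.99 ± 0.98. Without IFN-γ replicate 3 the difference was -3.08 for H2-Ab1 and -7.99 for H2-Oa.

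**Figure D2:**
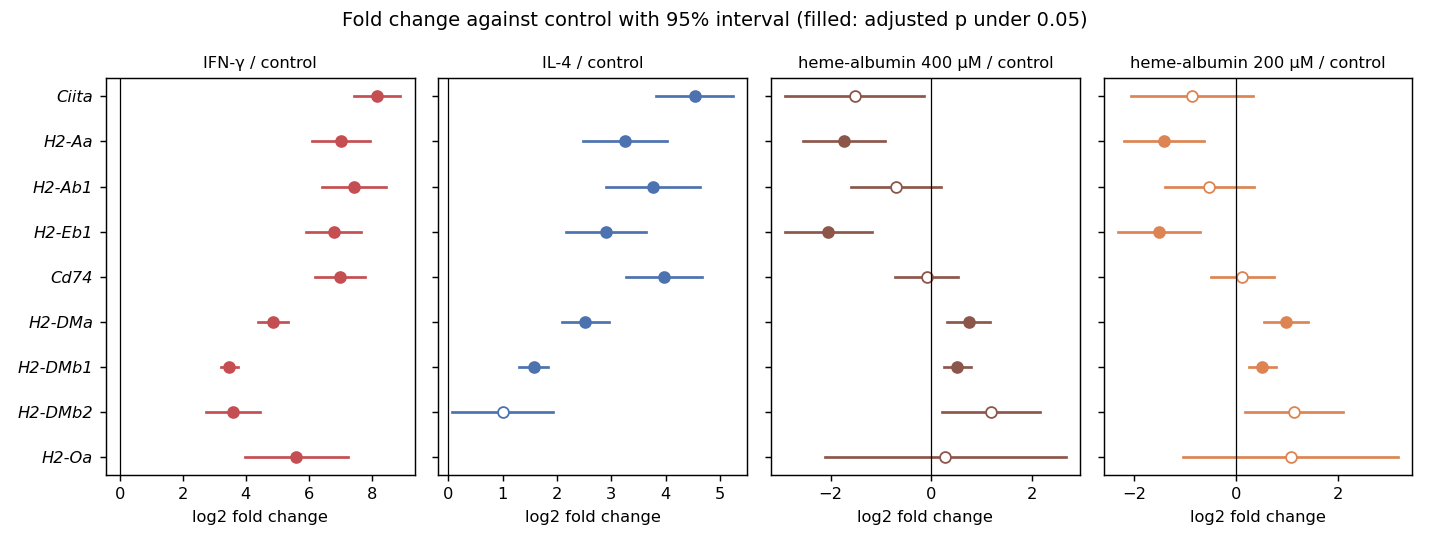
Log2 fold change of each gene against control with its 95% interval from edgeR, 1 panel a treatment, filled where the adjusted p was under 0.05. IFN-γ has 9 filled points, IL-4 has 7 (H2-Oa, with 1 count, is not drawn), and each heme-albumin dose has 4, with H2-Aa and H2-Eb1 left of 0 and H2-DMa and H2-DMb1 right of it.

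With heme-albumin the 9 genes did not move together: 2 chains were lower and 2 peptide exchange genes were higher than in controls, at both doses. At 400 µM, 2 of 9 genes were called lower and 2 higher, where 25.4% of all genes tested were called, 10.8% lower and 14.7% higher. At 200 µM the counts were again 2 lower and 2 higher, where 23.4% of all genes were called, 9.48% lower and 14% higher. The median difference of the 9 genes was -0.09 at 400 µM and 0.12 at 200 µM, against 0.01 and 0.02 over all genes. Both doses were set against the same 3 control libraries.

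H2-Eb1 had the largest fall that passed. It had 3.95, 1.87 and 2.50 CPM at 400 µM and 4.12, 3.86 and 3.87 CPM at 200 µM, against 18.4, 12.1 and 8.31 CPM in controls. The differences were -2.05 ± 0.40 at 400 µM (edgeR, adjusted p = 0.00216) and -1.51 ± 0.37 at 200 µM (adjusted p = 0.0102). The highest heme-albumin library lay below the lowest control.

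H2-Aa had 7.68, 3.20 and 4.32 CPM at 400 µM and 8.44, 6.14 and 3.97 CPM at 200 µM, against 25.4, 19.1 and 12.9 CPM in controls. The differences were -1.75 ± 0.38 (edgeR, adjusted p = 0.00437) and -1.41 ± 0.37 (adjusted p = 0.0132), again with no overlap with controls. At 200 µM the calls of both chains rested on control replicate 1: without it H2-Aa gave -1.19 (adjusted p = 0.0607) and H2-Eb1 -1.21 (adjusted p = 0.0511), and H2-Aa also missed without 200 µM replicate 3 (-1.19, adjusted p = 0.0548). At 400 µM both stayed past the threshold in every alternative, with adjusted p of at most 0.0231 and 0.0132.

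H2-Ab1, which pairs with H2-Aa in I-A, had 7.90, 3.75 and 4.55 CPM at 400 µM and 7.61, 5.75 and 4.48 CPM at 200 µM, against 12.9, 10.1 and 6.53 CPM in controls. It did not pass at either dose (-0.70 ± 0.42, 95% interval -1.60 to 0.19, adjusted p = 0.238, and -0.53 ± 0.41, interval -1.40 to 0.35, adjusted p = 0.374), and its ranges overlapped. The within-library ratio of H2-Aa to H2-Ab1 in TPM was 0.657, 0.577 and 0.642 at 400 µM and 0.751, 0.722 and 0.599 at 200 µM, against 1.33, 1.28 and 1.34 in controls. All 6 heme-albumin ratios lay below the lowest control ratio.

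Cd74 had 79.7, 46.9 and 67.0 CPM at 400 µM and 69.9, 100.4 and 49.8 CPM at 200 µM, against 93.5, 81.2 and 59.7 CPM in controls. The groups overlapped and neither difference passed (-0.09 ± 0.29, interval -0.71 to 0.54, and 0.12 ± 0.29, interval -0.50 to 0.75). Ciita had 0.110, 0.110 and 0.455 CPM at 400 µM and 0.698, 0.394 and 0 CPM at 200 µM, against 0.646, 0.983 and 0.949 CPM in controls. These Ciita levels rest on 8 counts at 400 µM and 15 at 200 µM, against 32 in controls. With edgeR the difference did not pass at 400 µM (-1.53 ± 0.64, interval -2.91 to -0.14, adjusted p = 0.0993) or 200 µM (-0.86 ± 0.55, interval -2.06 to 0.33, adjusted p = 0.281). The values moved with single libraries: the difference of Ciita was -2.67 without 400 µM replicate 3 and, at 200 µM, -1.69 without 200 µM replicate 1 and -0.41 without 200 µM replicate 3, none of them called. DESeq2 called Ciita lower at 400 µM (-1.57, adjusted p = 0.0346).

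H2-DMa had 23.7, 17.5 and 25.6 CPM at 400 µM and 21.3, 32 and 24.1 CPM at 200 µM, against 12.8, 17.8 and 14.8 CPM in controls. It was higher by 0.75 ± 0.20 at 400 µM (edgeR, adjusted p = 0.0138) and 0.98 ± 0.20 at 200 µM (adjusted p = 0.00301). In CPM, which leaves out the TMM scaling that the fold includes, 400 µM replicate 2 lay within the controls. With edgeR the call at 400 µM was lost without control replicate 1 (0.62, adjusted p = 0.0621) or 400 µM replicate 3 (0.63, adjusted p = 0.0613). Its exons share 10.4% of their bases with Brd2 on the other strand, and Brd2 had 204 to 212 CPM at 400 µM and 196 to 213 CPM at 200 µM, against 210.5 to 217 CPM in controls.

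H2-DMb1 had 39.8, 34.1 and 35.7 CPM at 400 µM and 33.4, 40.2 and 34.8 CPM at 200 µM, against 25.9, 31.9 and 29.7 CPM in controls. Every heme-albumin library lay above every control, by 0.52 ± 0.12 on the log2 scale at both doses (edgeR, adjusted p = 0.00747 and 0.00806). These folds include the TMM scaling of libraries, whose factors were 0.920 to 1.00 at 400 µM and 0.932 to 0.976 at 200 µM, against 1.08 to 1.12 in controls. At 200 µM H2-DMb1 missed the threshold without control replicate 1 (0.41, adjusted p = 0.0527), which left 1 of the 4 calls at that dose, H2-DMa.

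H2-DMb2 had 1.32, 0.772 and 1.59 CPM at 400 µM and 1.05, 1.5 and 1.02 CPM at 200 µM, against 0.574, 0.525 and 0.831 CPM in controls, and did not pass (1.19 ± 0.45, adjusted p = 0.0708, and 1.14 ± 0.45, adjusted p = 0.0843). It was called at 200 µM with only the 6 libraries compared in the fit (1.13, adjusted p = 0.0358). H2-Oa had 9 counts at 400 µM and 18 at 200 µM, against 10 in controls, and a change of its size was not detectable at this depth (0.28 ± 1.11 and 1.07 ± 0.98).

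The column headers give each replicate number a date of its own, so each heme-albumin library was also set against the control of the same number, in CPM. At 400 µM the log2 differences of H2-Aa were -1.72, -2.56 and -1.58, and those of H2-Eb1 were -2.21, -2.65 and -1.72. At 200 µM they were -1.59, -1.63 and -1.69 for H2-Aa and -2.15, -1.63 and -1.09 for H2-Eb1. H2-Ab1 was also below its own control in all 6 pairs, at -1.41 to -0.52. H2-DMb1 was above it in all 6 (0.09 to 0.62), and H2-DMa in 5 of 6, with 400 µM replicate 2 at -0.02. These differences leave out the TMM scaling, whose factors were 1.08 to 1.12 in controls. They were lower at 400 µM (0.920 to 1.00) and 200 µM (0.932 to 0.976). With that scaling every pair would lie higher, so the falls would be smaller and the rises larger.

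**Figure D3:**
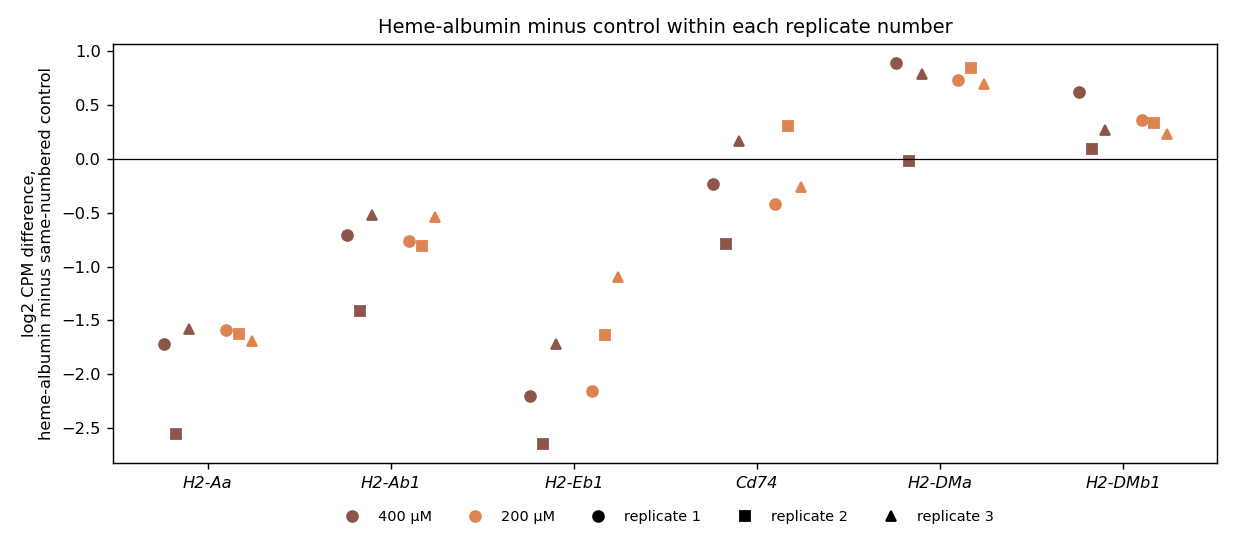
Log2 difference in CPM of each heme-albumin library from the control of the same replicate number for the 6 genes with the most counts, with 400 µM left of 200 µM for each gene and a marker shape per replicate number. H2-Aa, H2-Ab1 and H2-Eb1 lie below 0 in all pairs, Cd74 on both sides, and H2-DMa and H2-DMb1 above 0 except H2-DMa in 400 µM replicate 2.

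Between the doses none of the 9 genes was called by edgeR, as was 0% of all genes tested (0 of 11883), while at an unadjusted p under 0.05 there were 1796 genes, 15.1%, and 0 of the 9. DESeq2 called 13 genes, 0 of the 9 among them. The intervals of the difference between 400 and 200 µM ran from -1.19 to 0.52 for H2-Aa, from -1.46 to 0.40 for H2-Eb1, from -0.83 to 0.41 for Cd74 and from -0.26 to 0.27 for H2-DMb1. They were wider for Ciita (-2.26 to 0.94) and H2-Oa (-2.96 to 1.38), and equal levels at both doses are not shown.

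Heme-albumin at 400 µM was also set against IFN-γ directly. All 9 genes were lower at 400 µM than with IFN-γ, H2-Oa under the limit of the filter given above. Of all genes tested 42.9% were called, 22.3% lower and 20.6% higher. Ciita differed by -9.71 ± 0.40, H2-Eb1 by -8.85 ± 0.46, H2-Aa by -8.77 ± 0.46, H2-Ab1 by -8.15 ± 0.49 and Cd74 by -7.08 ± 0.37 (edgeR, adjusted p from 8.53e-10 to 2.41e-08). H2-Oa (-5.32 ± 0.77), H2-DMa (-4.11 ± 0.21), H2-DMb1 (-2.96 ± 0.13) and H2-DMb2 (-2.40 ± 0.37) differed by less. The Ciita value rests on 8 counts at 400 µM and was -10.86 without 400 µM replicate 3, which held most of them. Without IFN-γ replicate 3 the difference was -7.56 for H2-Ab1 and -4.32 for H2-Oa, and without both libraries that stood apart it was -8.17 for H2-Aa and -8.26 for H2-Eb1.

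The order of the group means in CPM was IFN-γ, IL-4, control, heme-albumin 200 µM, heme-albumin 400 µM, from high to low, for Ciita, the 3 chains and Cd74. With TMM scaling Cd74 at 200 µM lay above control (0.12 ± 0.29), a difference that did not pass. In these genes IFN-γ and IL-4 did not overlap, nor did IL-4 and control. Control and 200 µM overlapped in Ciita, H2-Ab1 and Cd74, and 200 and 400 µM overlapped in all of them. For H2-DMa the order was IFN-γ, IL-4, 200 µM, 400 µM, control, and for H2-DMb1 it was IFN-γ, IL-4, 400 µM, 200 µM, control. For H2-DMb2 the 4 groups other than IFN-γ overlapped their neighbours, and for H2-Oa IL-4 was last.

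Set per exon length, the ratios between these genes lay outside the range of the controls in most comparisons. The sum of H2-DMa and H2-DMb1 per sum of the 3 chains, in TPM, was 0.201, 0.209 and 0.107 with IFN-γ, 0.447, 0.551 and 0.555 with IL-4, 4.29, 7.76 and 6.83 at 400 µM and 3.56, 5.69 and 5.80 at 200 µM, against 0.901, 1.59 and 2.15 in controls. Each cytokine library lay below every control and each heme-albumin library above. With IFN-γ the chains averaged 1799 ± 563 TPM (H2-Aa), 1818 ± 871 TPM (H2-Ab1) and 2036 ± 675 TPM (H2-Eb1), and H2-DMa and H2-DMb1 355 ± 28.6 and 541 ± 33.6 TPM (SD, n = 3). At 400 µM the same 5 genes averaged 3.97 ± 1.83, 6.26 ± 2.55, 4.25 ± 1.63, 19.2 ± 3.43 and 64.7 ± 5.16 TPM, and in controls 15.6 ± 5.18, 11.9 ± 3.92, 20.6 ± 8.35, 13.6 ± 2.03 and 53.6 ± 4.79 TPM.

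Cd74 per sum of the chains was 2.94, 3.37 and 2.54 with IFN-γ, 4.09, 5.86 and 4.92 with IL-4, 6.65, 8.55 and 9.5 at 400 µM and 5.70, 10.2 and 6.20 at 200 µM, against 2.63, 3.19 and 3.48 in controls. IFN-γ overlapped the controls, and the other 3 groups lay above them. The ratio of H2-Aa to H2-Ab1 was 1.13, 1.11 and 0.867 with IFN-γ and 0.881, 0.970 and 0.909 with IL-4, below all controls as with heme-albumin. Of these 12 comparisons with control, 11 did not overlap and gave the smallest p that an exact two-sided permutation test of 3 against 3 libraries allows, 0.1 (0.109 adjusted over the 12), and Cd74 per chain with IFN-γ gave p = 0.7.

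**Figure D4:**
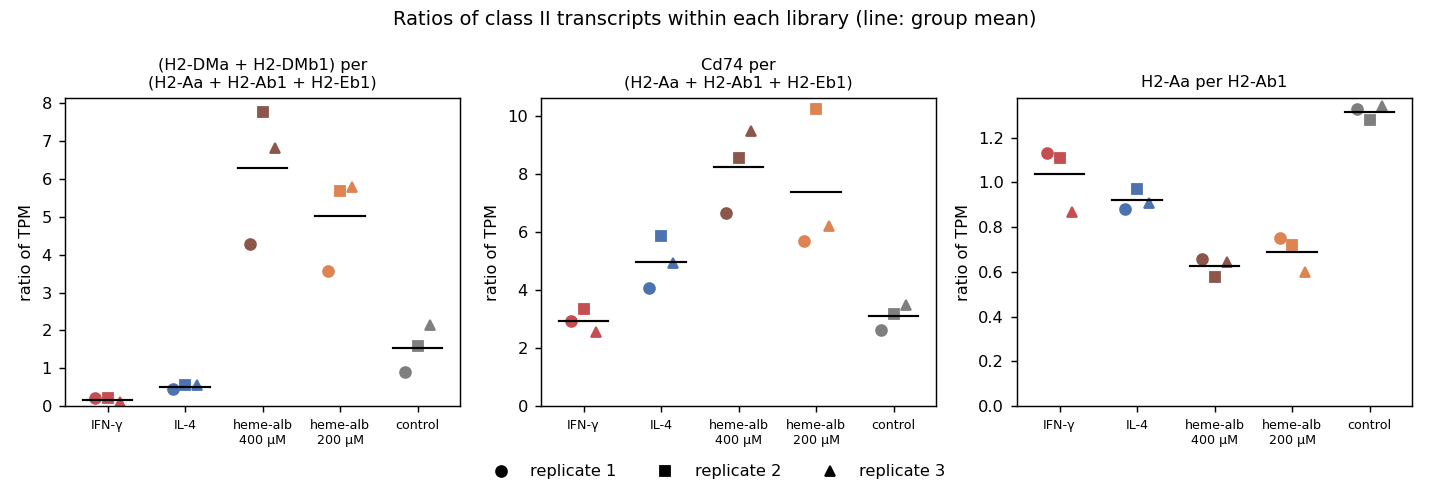
Ratios of TPM within each library, with a line at the group mean and a marker shape per replicate number: H2-DMa plus H2-DMb1 per the 3 chains, Cd74 per the 3 chains, and H2-Aa per H2-Ab1. In the first ratio the cytokine groups reach at most 0.555 and heme-albumin at least 3.56, and in the third all treated libraries lie below the controls at 1.28 to 1.34.

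The factors that bind class II promoters moved little beside the genes themselves. Of 7 (the RFX and NF-Y subunits and Creb1), 1 was higher and 2 were lower with IFN-γ: Rfx5, an RFX subunit, had 23.2, 23.3 and 23.7 CPM, against 15.2, 15 and 17.2 CPM in controls (0.76 ± 0.13, edgeR, adjusted p = 4.04e-04), while Rfxap (-0.54 ± 0.15) and Nfya (-0.48 ± 0.08) were lower. None of the 7 passed with IL-4 or at 400 µM, and at 200 µM only Creb1 did (-0.41 ± 0.11, adjusted p = 0.0125). Of all genes tested, 43.7% were called with IFN-γ, 26.8% with IL-4, 25.4% at 400 µM and 23.4% at 200 µM. With so few factors, their counts are given as a description.

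Of 13 genes that lead to Ciita transcription or limit it, 9 were higher and 0 lower with IFN-γ, where 24.1% of all genes tested were higher and 19.5% lower. Their median difference was 1.29, against 0.05 over all genes. Irf1, the factor that IFN-γ induces and that binds a Ciita promoter, had 1138, 1415 and 1369 CPM, against 55.3, 61.8 and 48.8 CPM in controls (4.76 ± 0.15, adjusted p = 2.67e-10). Irf8, a myeloid interferon regulatory factor, was higher by 2.44 ± 0.14, Socs1, a feedback inhibitor of JAK kinases, by 6.36 ± 0.47, and Irf2, a relative of Irf1, by 1.29 ± 0.11.

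With IL-4, 2 of the 13 were higher and 2 lower, where 14.9% and 12% of all genes were. Socs1 (5.56 ± 0.46) and Jak2, a kinase of the IFN-γ receptor (1.10 ± 0.17), were higher. Il4ra, a chain of the IL-4 receptor (-0.65 ± 0.15), and Irf8 (-0.57 ± 0.13) were lower. Irf1, at 63.0, 60.6 and 56.8 CPM with IL-4, did not pass against controls (0.23 ± 0.13, adjusted p = 0.217). Whether these genes had a part in the Ciita level with IL-4 was not tested.

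With heme-albumin, Irf1 was lower at both doses. Irf1 had 28.2, 23.2 and 22.6 CPM at 400 µM and 29.4, 27.3 and 25.6 CPM at 200 µM, against 55.3, 61.8 and 48.8 CPM in controls (-0.97 ± 0.13, edgeR, adjusted p = 1.66e-04, and -0.81 ± 0.13, adjusted p = 7.18e-04). At 400 µM 3 of the 13 were lower and 0 higher, where 10.8% and 14.7% of all genes were, the others being Ifngr1, a chain of the IFN-γ receptor (-0.89 ± 0.17), and Stat6, the signal carrier of IL-4 (-0.32 ± 0.11). At 200 µM 1 was lower, Irf1, and 1, Irf8, was higher (0.40 ± 0.13), where 9.48% of all genes were lower and 14% higher. Whether these levels had a part in those of Ciita and the chains was not tested.

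Of 8 endosomal proteases measured, which cut antigens and the invariant chain, 2 were higher and 3 lower with IFN-γ, 3 higher and 1 lower with IL-4, 1 higher and 4 lower at 400 µM, and 1 higher and 3 lower at 200 µM. The share of all genes tested that was called in either direction was 43.7% with IFN-γ, 26.8% with IL-4, 25.4% at 400 µM and 23.4% at 200 µM, and with so few proteases their counts are given as a description. Ctss, the main protease of the late invariant chain in dendritic cells and B cells, was higher with IFN-γ (1.99 ± 0.39) and IL-4 (1.32 ± 0.38). Ctsl, a related cathepsin, had 3355, 3406 and 3470 CPM at 400 µM and 3209, 2951 and 3060 CPM at 200 µM, against 1837, 1731 and 1727 CPM in controls (1.15 ± 0.14 and 1.01 ± 0.14), and was also higher with IL-4 (1.15 ± 0.14) but lower with IFN-γ (-0.48 ± 0.14). Lgmn, the asparaginyl endopeptidase, was lower at 400 µM (-1.38 ± 0.22) and 200 µM (-0.89 ± 0.22), and Ctsc, which activates granule proteases, was higher with IFN-γ (3.10 ± 0.20) and lower with IL-4 (-1.23 ± 0.19), at 400 µM (-1.09 ± 0.19) and at 200 µM (-0.67 ± 0.19).

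Of the 3 genes of class II turnover, March1 was higher in all 4 treatments and Cd83 split them. All treatments were set against the same 3 control libraries. Among all genes tested, 43.7% (IFN-γ), 26.8% (IL-4), 25.4% (400 µM) and 23.4% (200 µM) were called. March1 is a ubiquitin ligase that sends class II molecules to lysosomes. It had 174, 130.4 and 241 CPM with IFN-γ (3.20 ± 0.32), against 18.8, 22.8 and 27.5 CPM in controls. With heme-albumin it had 42.2, 53.8 and 60.5 CPM at 400 µM (1.39 ± 0.30) and 33.0, 44.4 and 46.7 CPM at 200 µM (1.06 ± 0.30). With IL-4 it had 51.2, 26.7 and 49.3 CPM (1.00 ± 0.30), and in CPM IL-4 replicate 2 lay within the controls. Cd83, which opposes MARCH1, had 1.98, 3.64 and 2.28 CPM at 400 µM and 2.37, 2.91 and 2.65 CPM at 200 µM, against 17.9, 23.9 and 16.6 CPM in controls (-2.71 ± 0.35 and -2.68 ± 0.34). Cd83 was higher with IFN-γ (0.92 ± 0.29) and IL-4 (1.55 ± 0.29). With IFN-γ it had 18.4, 36.9 and 40.5 CPM, and replicate 1 lay within the controls. March8, a relative of March1, was lower with IFN-γ (-0.42 ± 0.09), higher with IL-4 (0.36 ± 0.09) and did not pass with heme-albumin. No protein was measured.

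Other class II positive cells of marrow cultures were looked for by their markers. The 8 dendritic cell markers summed to 30.8 to 67.3 CPM with IFN-γ, 443 to 796 CPM with IL-4, 7.68 to 30.0 CPM at 400 µM and 2.51 to 17.2 CPM at 200 µM, against 12.1 to 17.6 CPM in controls. With IFN-γ the sum was mostly Clec9a, a receptor of cross-presenting dendritic cells, at 41.3, 50.6 and 23.1 CPM, against 1 count in the controls, and Xcr1 had 11.7, 8.89 and 0.488 CPM against 2 counts in the controls. Cd209a was lower with IFN-γ (2 counts, against 19 in controls, -3.39 ± 1.2, adjusted p = 0.0356), and Zbtb46 (-0.06 ± 0.71) and Itgax (-0.93 ± 0.67) did not pass. With IL-4 the sum was mostly the integrin Itgax, at 790.4, 440 and 660 CPM, against 10.5, 17 and 11.9 CPM in controls. Zbtb46 (2.24 ± 0.60) and Cd209a (2.52 ± 0.69) were also called higher. Zbtb46 had 2.26, 0.544 and 2.59 CPM with IL-4, against 0.287, 0.328 and 0.712 CPM in controls, so IL-4 replicate 2 lay within the controls. Cd209a had 3.07, 2.18 and 2.94 CPM with IL-4, against 1.00, 0.0656 and 0.475 CPM in controls. Both passed the filter on low counts mainly through the IL-4 libraries. Their calls with IL-4 thus follow in part from that group and are no separate support. Flt3 and Ccr7, which mark dendritic cells and their migration, had at most 5 counts in any group. The part of such cells in the class II levels was not tested.

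Of the 6 B cell markers, Ms4a1 and Pax5 had 0 counts with IFN-γ, with heme-albumin and in controls, and the list's sum, which was mostly Ighm except in IFN-γ replicate 3 (Ighm 1.52 and Cd79b 1.71 CPM), was 3.23 to 48.7 CPM with IFN-γ, 135 to 178 CPM with IL-4, 10.6 to 22.2 CPM at 400 µM and 26.6 to 73.3 CPM at 200 µM, against 234 to 255 CPM in controls. Ighm, the heavy chain of IgM, was lower at 400 µM (-3.71 ± 0.73) and 200 µM (-2.08 ± 0.67), as H2-Aa and H2-Eb1 were, and also with IFN-γ (-3.21 ± 0.70), where the class II genes were higher. With IL-4 Ighm did not pass (-0.48 ± 0.64). Cd79b, the only other gene of this list that was tested, did not pass at 400 µM (-0.44 ± 0.30), 200 µM (0.15 ± 0.29) or with IFN-γ (-0.12 ± 0.28). It was lower with IL-4 (-2.52 ± 0.33). The part of these genes in the levels of the chains was not tested. Cd3e, Cd3d, Ncr1 and Ifng, which mark T and NK cells or are made by them, had 0 counts in all groups. Cd2, an adhesion molecule of lymphocytes and the only gene of that 6-gene list that was tested, had 100 counts with IL-4, 12 at 400 µM and 14 at 200 µM, against 2 in controls, and was called higher in all 3 (4.84 ± 0.61, 2.84 ± 0.79 and 2.83 ± 0.77); with IFN-γ it had 0. Cd2 passed the filter on low counts through the IL-4 libraries, at 1.29 to 1.96 CPM. In the other groups its highest value was 0.551 CPM. Its call with IL-4 thus follows in part from that group and is no separate support. With heme-albumin the exact binomial 95% intervals, for counting error only, were 1.60 to 66.2-fold at 400 µM and 1.64 to 64.8-fold at 200 µM. The part of Cd2 in the class II levels was not tested. The 5 neutrophil markers summed to 2.22 to 37.6 CPM with IFN-γ and 1.74 to 33.2 CPM with IL-4. They summed to 15.9 to 50.3 CPM at 400 µM and 9.37 to 31.4 CPM at 200 µM, against 3.8 to 21.6 CPM in controls. None of the 3 tested passed against controls. The differences at 400 µM were 3.03 ± 1.15 for S100a8 (edgeR, adjusted p = 0.0689), 3.7 ± 1.3 for Mpo (adjusted p = 0.0547) and -0.09 for S100a9. Mpo was called higher at 400 µM than with IFN-γ (4.45 ± 1.37, edgeR, adjusted p = 0.0182), on 64 counts against 5. Replicate 1 held most of them: Mpo had 5.93, 0.551 and 0.379 CPM at 400 µM. It passed the filter on low counts through heme-albumin libraries, and in the other groups its highest value was 0.502 CPM. This call thus follows in part from those libraries and is no separate support. The part of the neutrophil markers in the class II levels was not tested.

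Across the 15 libraries, the levels of H2-Aa (Pearson r 0.984), H2-Ab1 (0.980), Cd74 (0.979) and H2-Eb1 (0.975) were most like those of Ciita, followed by H2-DMa (0.930) and H2-DMb1 (0.928), while H2-DMb2 (0.727) and H2-Oa (0.572) were less so. Of all other genes tested, Rhoh (0.974), Psmb10 (0.964), Gnb4 (0.963), Cd300lf (0.957) and Max (0.956) had the pattern most like Ciita. For H2-Ab1 these were Psmb10 (0.974), Gnb4 (0.968), Jak2 (0.967), Fzd7 (0.966) and Entpd1 (0.965). These values describe log2 CPM over libraries that fall into 5 groups, and genes that differ between the same groups share such a pattern.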

How the data were processed

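The authors deposited raw counts per gene for 15 libraries made with a stranded TruSeq kit, per the labels' protocols. The submitters' processing notes name STAR 2.7.0e, SAMtools 1.9, featureCounts and GRCm38.p5. The sources used here give neither annotation nor strand setting for the counting, which leaves reads of overlapping genes uncertain. Positions, exon lengths and overlaps are from GENCODE M21 (GRCm38), which held 25664 of 25700 gene identifiers. The higher dose was taken as 400 µM from the titles and protocol.

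The deposited counts went into edgeR 4.0.16 under R 4.3.3 (filterByExpr, TMM, 1 quasi-likelihood model over all libraries, each group with its mean, 10 residual degrees of freedom), with p-values adjusted over all 11883 genes of a comparison. The standard error is the fold change divided by the square root of F. CPM use library totals, and TPM use exon lengths. The fit was tested on simulated data. The replicate numbers were checked as pairs: each has 1 date in the column headers, with no word on what it marks. Of 30 same-number pairs across groups, 19 had deviations from the group means that correlated over 0.1 (median 0.144, range -0.168 to 0.474), against a median of -0.0688 for 60 other pairs. Deviations within a group cancel, so the other pairs fall as the same-number pairs rise and are no separate reference. Of 15 libraries, 14 were closest to those of their own number.

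The 9 genes and all lists were chosen with earlier results of these data known. Alternatives were DESeq2 1.42.0, edgeR with DESeq2 or with upper-quartile factors, no filter, 5 CPM in 3 libraries, only the 6 libraries compared, a replicate block, leaving out each library, and leaving out both libraries that stood apart. All 9 genes are named, and of the other lists up to 4 genes per comparison that passed, by smallest p, or a gene that a result turns on. Genes like Ciita or H2-Ab1 are the 5 of highest correlation, passing over predicted genes. A gene of the signalling list and one of the B cell list are not reported here. Ifi30 was not used here, and H2-Eb2, at 1 count or less in a group, was not tested. Figures were drawn with matplotlib 3.10.9.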

Additional observations from a re-analysis of the deposited data

How the results depend on the processing

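Of 849 alternative values of the 9 genes in 7 comparisons, 823 kept direction and side of the threshold, 6 lost the call, 4 gained it and 16, none of them called, changed sign. The number of class II genes called was 8 or 9 with IFN-γ, 7 or 8 with IL-4 and 3 to 5 at 400 µM, against control. At 200 µM it ran from 1 to 4 on leaving out a library, with 1 without control replicate 1, and was 5 with only the 6 libraries compared. Against IFN-γ it was 8 or 9, at 400 µM and with IL-4, and between doses it was 0. The count of 8 with IFN-γ came from the filter of 5 CPM, under which fewer genes are tested. With the replicate block the counts were 9 for IFN-γ, 7 for IL-4, 4 for each dose, 0 between doses and 9 against IFN-γ, so the block changed no call.

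Signs changed for Cd74 at 400 µM against control (0.08 without both libraries that stood apart, and -0.26 to 0.07 on leaving out a library, with 0.04 without control replicate 1) and at 200 µM (-0.20 to 0.34, with -0.06 without control replicate 3). Between doses they changed for H2-DMb1 (-0.01 with no filter, and -0.07 to 0.11 on leaving out a library, with -0.03 without 200 µM replicate 3 or 400 µM replicate 1), and on leaving out a library for H2-DMb2 (-0.21 to 0.28, with -0.06 and -0.04 without 200 µM replicates 1 and 3), H2-Ab1 (-0.50 to 0.02), Ciita (-1.81 to 0.16), Cd74 (-0.43 to 0.11) and H2-Oa (-1.38 to 0.16). The cause was not tested.

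Over all genes, the number called moved by over 1.5 times with only the 6 libraries compared (5150 in place of 3190 with IL-4, 4456 in place of 2785 at 200 µM, 2741 in place of 5097 at 400 µM against IFN-γ) and, at 200 µM, without control replicate 1 (1787) or 200 µM replicate 2 (1679). Between doses DESeq2 called 13 genes, and edgeR without both libraries that stood apart called 1. Depth limits Ciita, H2-DMb2 and H2-Oa in controls and with heme-albumin.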
